A study of Mus musculus with 24 samples.

Results

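The transcript described here is 1700016P03Rik (ENSMUSG00000085609.1), the noncoding RNA whose first intron holds the microRNA genes Mir212 and Mir132. It is 1 of 54446 genes in a table of expression values from mouse corpus callosum, the large bundle of myelinated axons between the hemispheres of the brain, and it was found by its gene identifier. It was chosen because its values differed between the groups, so its own differences are described and not tested. Bulk RNA sequencing of polyadenylated RNA had been performed on 24 libraries in 4 groups. Cuprizone BTKi (n = 8) came from mice given cuprizone and BTKi. Cuprizone is a copper chelator that kills oligodendrocytes and strips axons of myelin, and BTKi is a drug that blocks Bruton's tyrosine kinase (BTK). Cuprizone Vehicle (n = 8) came from cuprizone mice given vehicle. Naive BTKi (n = 4) and Naive Vehicle (n = 4) came from mice without cuprizone given the inhibitor or vehicle. BTK signals in B cells and in microglia and other myeloid cells, and every library was made from whole tissue, in which neurons and glia are read together. The compound, its dose, the length of each treatment and the strain, sex and age of the mice are not given in the labels. Nor do they say that each library came from its own animal, so errors and p-values measure the spread between these libraries, which may be partly technical.

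MicroRNAs are short RNAs that pair with messenger RNAs, mostly in the 3′ untranslated region (UTR), through a seed of bases 2 to 8 and lower their stability or translation. The miR-212/132 host is transcribed as a long precursor from which the hairpins are cut, and in neurons its transcription is known to be induced by CREB, the transcription factor that answers to calcium, cAMP and growth factors such as BDNF. Genes such as Fos, Nr4a1 and Arc are induced by the same stimuli within minutes, and Npas4 by the activity of neurons. miR-132 is known for its part in dendrite growth and, through acetylcholinesterase, in inflammation.

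The mature microRNAs are shown because they carry the activity of the locus, with the seed in capitals. The sequences are from RefSeq on GRCm38.p6, written 5′ to 3′ from the plus strand.
miR-132-3p: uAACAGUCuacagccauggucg
miR-212-3p: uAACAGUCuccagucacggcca
miR-132-5p: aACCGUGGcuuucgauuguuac
miR-212-5p: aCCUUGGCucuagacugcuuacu

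miR-132-3p (chr11:75173723-75173744) and miR-212-3p (chr11:75173443-75173464) shared the seed AACAGUC, and no other of 1679 mature mouse microRNAs in the RefSeq table had it. The pair were identical at 17 of 22 positions, and their first difference was at position 10, past the seed. The seeds of the 5p arms, ACCGUGG and CCUUGGC, were each found in 1 mature microRNA. The hairpins from which both arms are cut are shown with the 3p arm in capitals, to place it in the precursor.
Mir132 hairpin: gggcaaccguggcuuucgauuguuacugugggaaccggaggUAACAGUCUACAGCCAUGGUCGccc
Mir212 hairpin: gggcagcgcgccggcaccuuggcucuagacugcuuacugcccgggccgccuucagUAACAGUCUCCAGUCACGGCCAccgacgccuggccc

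In GENCODE M21 (GRCm38), 1700016P03Rik is a processed transcript on the plus strand at chr11:75172560-75177633, with 1 annotated transcript of 863 bases in 3 exons of 38, 184 and 641 bases. Both hairpins lay in the first intron (1380 bases), Mir212 at chr11:75173388-75173478 and Mir132 at chr11:75173682-75173747, as the name of the transcript implies. The FPKM values (fragments scaled to the length of the gene and to the total of the library) therefore come from the exons of the host and do not measure the microRNAs. The rows of Mir132 and Mir212 were listed at 0 in all 24 libraries, and mature microRNAs, which have no poly(A) tail, are not read by such libraries. Exon 3, which makes up 74.28% of the transcript, lay wholly within exons of Ovca2 on the minus strand. Exons 1 and 2 shared no base with Ovca2, and they are shown because only there do the letters belong to the host alone.
exon 1: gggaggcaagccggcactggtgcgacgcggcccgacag
exon 2: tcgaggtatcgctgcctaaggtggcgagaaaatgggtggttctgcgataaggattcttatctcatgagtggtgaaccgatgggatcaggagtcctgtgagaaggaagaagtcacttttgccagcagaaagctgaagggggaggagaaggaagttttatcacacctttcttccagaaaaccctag

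**Figure D1:**
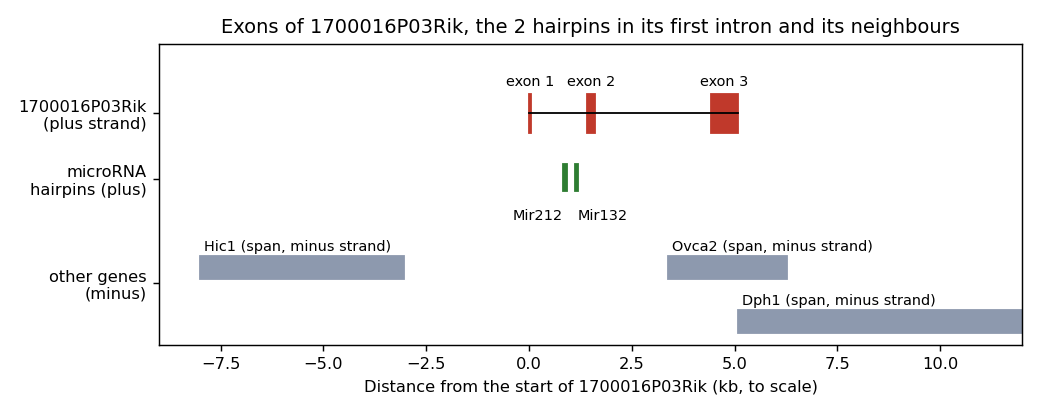
Map of the locus, to scale, with distance from the start of 1700016P03Rik in kb. Red boxes are its 3 exons, green boxes the Mir212 and Mir132 hairpins in its first intron, and grey boxes the spans of genes on the minus strand, of which Ovca2 covers all 641 bases of exon 3.

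1700016P03Rik was read in every library, and its group means stood in the order Cuprizone BTKi, Naive BTKi, Cuprizone Vehicle and Naive Vehicle from low to high. The Cuprizone BTKi libraries had 0.870 FPKM at the lowest, 1.16 at the median and 1.86 at the highest. The Cuprizone Vehicle libraries had 1.94 FPKM at the lowest, 2.65 at the median and 4.02 at the highest. Every Cuprizone BTKi library lay below every Cuprizone Vehicle library. The 4 Naive BTKi libraries had 3.17, 1.95, 2.45 and 1.64 FPKM. The 4 Naive Vehicle libraries had 5.55, 3.14, 4.69 and 3.40 FPKM. These naive groups overlapped by 1 library, Naive BTKi 1, which lay just above Naive Vehicle 2. Of all 15216 genes tested, 701 (4.61%) had group means in the same order.

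**Figure D2:**
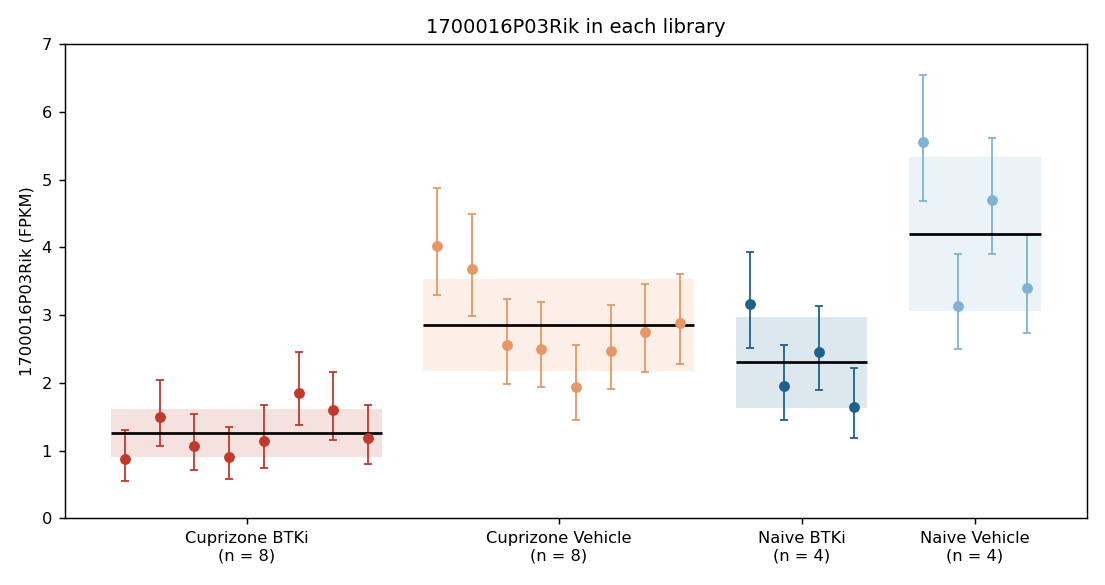
FPKM of 1700016P03Rik in each of the 24 libraries, by group. Points are libraries with 95% Poisson intervals for counting error, black lines are group means and shaded bands the SD; the 8 Cuprizone BTKi libraries sit between 0.870 and 1.86 FPKM, all below the Cuprizone Vehicle libraries, which start at 1.94.

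In cuprizone mice the host RNA averaged 1.26 ± 0.352 FPKM under BTKi and 2.85 ± 0.681 FPKM under vehicle (SD, n = 8 each), which put the BTKi mean at 44.4% of the vehicle mean. The log2 difference of FPKM + 0.5 was -0.92 (SE 0.14). The pseudocount of 0.5 shrinks differences of a gene this low: without it the log2 difference was -1.19. Across all genes tested, 16 (0.105%) had every Cuprizone BTKi library below every Cuprizone Vehicle library, a count that includes the host RNA, chosen on these values.

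In naive mice it averaged 2.30 ± 0.666 FPKM under BTKi and 4.20 ± 1.13 FPKM under vehicle (SD, n = 4 each), or 54.9% of the vehicle mean. The log2 difference was -0.74 (SE 0.20), and 3 of 4 Naive BTKi libraries lay below the lowest Naive Vehicle library. For comparison, 750 genes (4.93%) had all 4 Naive BTKi libraries below all 4 Naive Vehicle libraries, and the host RNA is not among them. The difference between the log2 differences in cuprizone and in naive mice was -0.18 (SE 0.24), smaller than its own error. This value too depends on the pseudocount: it was -0.28 (SE 0.29) with 0.1 and -0.31 without one.

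Between cuprizone and naive mice, the host RNA was lower in the cuprizone libraries under both treatments. Under vehicle, Cuprizone Vehicle stood at 67.9% of Naive Vehicle (log2 difference -0.48, SE 0.17), with 6 of 8 libraries below the lowest Naive Vehicle library. Under BTKi, Cuprizone BTKi stood at 54.9% of Naive BTKi (log2 difference -0.66, SE 0.17), with 7 of 8 libraries below the lowest Naive BTKi library. Full separation of this kind was found for 433 genes (2.85%) under vehicle and 223 genes (1.47%) under BTKi, without the host RNA. Cuprizone mice on the drug and naive mice on vehicle were the extremes: Cuprizone BTKi stood at 30.1% of Naive Vehicle and did not overlap it, as for 466 genes (3.06%). These comparisons share groups with those above, so they are not independent of them.

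Among neighbours in the order of levels, Naive BTKi and Cuprizone Vehicle overlapped across most of their ranges, 1.64 to 3.17 FPKM against 1.94 to 4.02 FPKM, and their means differed by less than the SD of either group. Cuprizone BTKi overlapped Naive BTKi by 1 library, Cuprizone BTKi 6, which lay above Naive BTKi 4 (1.86 against 1.64 FPKM). Cuprizone Vehicle 1 and 2, at 4.02 and 3.68 FPKM, reached into the range of Naive Vehicle. Within groups the SD was 27.8% of the mean in Cuprizone BTKi, 23.9% in Cuprizone Vehicle, 28.9% in Naive BTKi and 27.0% in Naive Vehicle.

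Fragment counts behind these values could be recovered. Multiplied by the length of 863 bases and a depth read from the spacing of low values in each library, all 24 host values came within 0.015 of a whole number of fragments. They were 23 to 49 fragments in Cuprizone BTKi, 51 to 105 in Cuprizone Vehicle, 43 to 82 in Naive BTKi and 82 to 143 in Naive Vehicle. The SD between libraries was 9.60, 17.9, 17.0 and 28.5 fragments in these groups, against 5.73, 8.68, 7.75 and 10.4 from counting alone. In the library with the fewest fragments, Cuprizone BTKi 1, the exact 95% Poisson interval ran from 0.551 to 1.30 FPKM, and in that with the most, Naive Vehicle 1, from 4.68 to 6.54 FPKM. These intervals cover counting error only. The depth implied was 2.98e+07 to 3.10e+07 fragments in 23 libraries and 2.65e+07 in Cuprizone BTKi 5, whose host value of 1.14 FPKM lay in the middle of its group.

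The 5 protein-coding genes with their start or end within 100 kb did not pass an adjusted p of 0.05 in any of the 4 comparisons of groups (limma). Over all genes, 0.177% and 0.217% passed under BTKi in cuprizone and in naive mice. Between cuprizone and naive mice, 15.0% passed under vehicle and 7.87% under BTKi. At these shares few calls would be found among any 5 genes. Dph1 came nearest, in cuprizone against naive mice under vehicle (log2 difference -0.15, SE 0.06, limma adjusted p = 0.0673). Ovca2, a predicted hydrolase, shares exon 3 with the host on the other strand. The library kit was a stranded one, but the strand setting of the counting is not given. If strand was not used, fragments of both genes over these 641 of 863 bases could be counted for the host, depending on the counting tool. The whole host, exon 3 included, had 23 to 49 fragments in Cuprizone BTKi, and how many of them came from Ovca2 was not tested. The Ovca2 level was 5.41 ± 0.268 FPKM in Cuprizone BTKi, 5.40 ± 0.449 in Cuprizone Vehicle, 5.01 ± 0.213 in Naive BTKi and 5.68 ± 0.248 in Naive Vehicle. The Ovca2 log2 differences under BTKi were 0.00 (SE 0.04) in cuprizone mice and -0.17 (SE 0.06, limma adjusted p = 0.257) in naive mice. Dph1, an enzyme of diphthamide synthesis whose 3′ end lies next to the end of exon 3, averaged 6.01, 6.40, 6.22 and 7.17 FPKM in Cuprizone BTKi, Cuprizone Vehicle, Naive BTKi and Naive Vehicle. Hic1, a transcriptional repressor upstream on the minus strand, averaged 1.12, 1.29, 1.22 and 1.15 FPKM in the same groups. Smg6, an endonuclease of nonsense-mediated decay, and Rtn4rl1, a Nogo receptor homologue, had group means of 8.16 to 8.71 FPKM and 18.5 to 19.0 FPKM.

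The 10 genes whose values over the 24 libraries were most like those of the host, by Pearson r on log2(FPKM + 0.5), were Junb (0.86), Nr4a1 (0.85), Ier2 (0.85), Npas4 (0.83), Dusp1 (0.82), Arc (0.81), Btg2 (0.78), Trib1 (0.77), Arfgap2 (0.75) and Sidt2 (0.75). The first 7 of these 10 belong to a list of 27 CREB-responsive genes. That list was written with earlier results of these data known, so the count of 7 is no independent support. The median r over the 15215 other genes tested was -0.02. All values come from the same libraries, so group differences and whatever else the libraries share enter each r, and no p is given. With the group means subtracted, r was between 0.26 (Btg2) and 0.64 (Trib1) for these 10 genes. The 10 genes most like the host within groups were others: Gsg1l, an auxiliary subunit of AMPA receptors, led at 0.79, and Cdk3-ps, 2900076A07Rik, Lzts3, Ncan, Ubqln4, Shank1, Brms1 and Sept5 were among the others (0.69 to 0.73). None of them is on the CREB-responsive list, and Shank1 encodes a scaffold protein of the postsynaptic density. The CREB-responsive list had a median r of 0.24 over the 24 libraries and 0.26 within groups, against -0.02 and -0.09 over all genes.

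**Figure D3:**
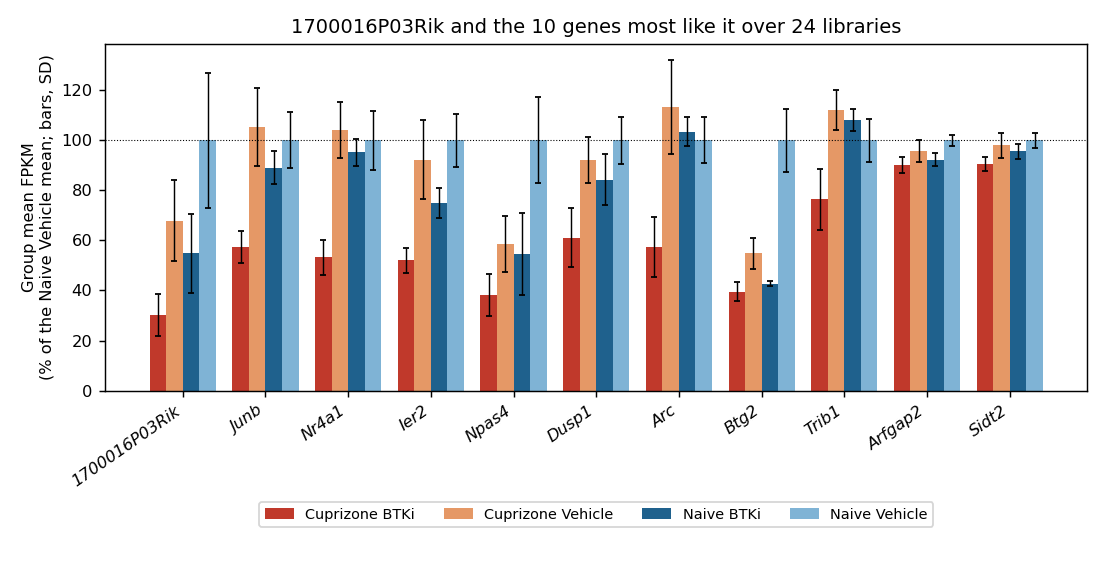
Group mean FPKM of 1700016P03Rik and of the 10 genes most like it over the 24 libraries, as a percent of the Naive Vehicle mean (bars, group means; error bars, SD). Npas4, Btg2, Ier2, Dusp1, Arfgap2 and Sidt2, like the host, are below the Naive Vehicle mean in each of the other groups. Arc and Trib1 are above it in Cuprizone Vehicle and Naive BTKi, and Junb and Nr4a1 in Cuprizone Vehicle only.

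These genes differed in how closely they followed the order of the groups. Relative to Naive Vehicle, the host RNA stood at 30.1% in Cuprizone BTKi, 67.9% in Cuprizone Vehicle and 54.9% in Naive BTKi. Npas4, a transcription factor of neurons that is induced by activity, came nearest, at 38.2%, 58.6% and 54.7%. Btg2, an antiproliferative gene, stood at 39.5%, 54.8% and 42.7%. Junb, a subunit of AP-1, stood at 57.4%, 105% and 89.1%, and Nr4a1, an orphan nuclear receptor, at 53.2%, 104% and 95.2%, so that both were low in Cuprizone BTKi and near the Naive Vehicle level in the other groups.

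Of the 27 CREB-responsive genes, all of which could be tested, 9 were lower and none higher in cuprizone mice under BTKi. Over all genes 27 were called in this comparison (0.177%), 21 of them lower (0.138%) and 6 higher (0.0394%), at a limma adjusted p under 0.05. The list was written with earlier results of these data known, so its count describes these libraries and is no independent support. Its median log2 change was -0.14, against -0.02 over all genes tested. Nr4a1 had 26.8 FPKM at the lowest, 32.6 at the median and 40.2 at the highest under BTKi, against 54.5, 62.0 and 72.2 FPKM under vehicle, with no overlap. The log2 change of Nr4a1 was -0.96, with an SE of 0.07 (limma adjusted p = 2.40e-08). Arc, which removes receptors from synapses, changed by -0.98 (SE 0.10, limma adjusted p = 4.90e-06) and Junb by -0.86 (SE 0.08, adjusted p = 6.13e-07), also without overlap of the groups. Ier2, an early response gene, was lower by -0.76 (SE 0.08, limma adjusted p = 4.90e-06). Dusp1, a phosphatase of MAP kinases, Fos, the partner of Junb in AP-1, and Btg2 were lower by -0.59, -0.54 and -0.43 (limma adjusted p = 0.00161, 0.00171 and 0.00154). Egr2, a zinc finger transcription factor, and Per1, a clock gene with a CREB site, were just past the threshold (-0.56 and -0.27, limma adjusted p = 0.0489 and 0.0474), and each missed it without any 1 of most libraries (21 and 15 of 24). Npas4 had 5.38 ± 1.20 FPKM under BTKi and 8.24 ± 1.56 FPKM under vehicle and did not pass (log2 difference -0.58, SE 0.14, limma adjusted p = 0.0852).

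In naive mice, 1 gene of the list was lower under BTKi and 1 higher, against 33 of all genes (0.217%), 17 lower (0.112%) and 16 higher (0.105%). Btg2 had 5.18, 5.28, 5.25 and 5.49 FPKM in Naive BTKi libraries, against 11.0, 12.5, 14.6 and 11.6 FPKM in Naive Vehicle libraries. The groups were far apart, and the log2 change was -1.15 (SE 0.09, limma adjusted p = 1.09e-07). Per1 was higher by 0.40 (SE 0.08, limma adjusted p = 0.0332), a call that was lost without any 1 of 6 libraries and gave 0.149 without Naive BTKi 4. Npas4, whose values were 10.9, 7.28, 7.14 and 5.43 FPKM in Naive BTKi and 16.3, 14.2, 15.1 and 10.7 FPKM in Naive Vehicle, overlapped at 1 library and did not pass (log2 difference -0.85, SE 0.19, limma adjusted p = 0.0634). The median log2 change of the list was -0.01, against -0.02 over all genes.

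**Figure D4:**
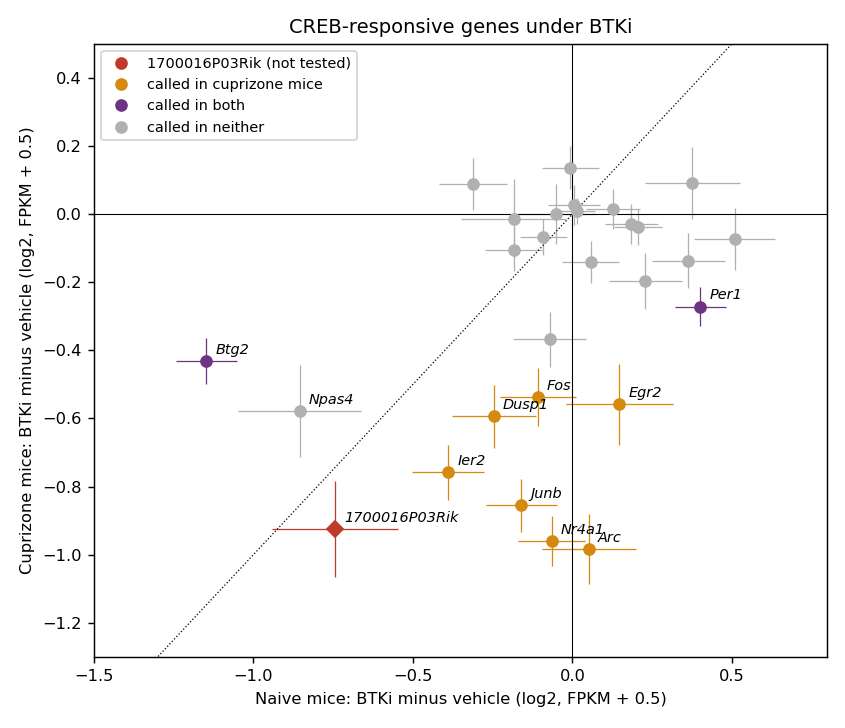
Log2 change of the 27 CREB-responsive genes and of 1700016P03Rik under BTKi in naive mice (x axis) and in cuprizone mice (y axis), on FPKM + 0.5; crosses are SE and the dotted line marks equal changes. The host lies at -0.74 and -0.92, below 0 on both axes, as do Btg2, Npas4, Ier2 and Dusp1 among others. Nr4a1 and Arc lie close to 0 on the naive axis. Of the 27 genes, 14 are below 0 in naive mice and 21 in cuprizone mice.

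The BTKi effect itself differed between cuprizone and naive mice for 5 genes of the list, 4 more negative and 1 more positive in cuprizone mice, among 19 of all genes (0.125%), of which 18 were more negative (0.118%) and 1 more positive (0.00657%). Nr4a1 (-0.90, SE 0.13, limma adjusted p = 0.00187), Arc (-1.03, SE 0.18, adjusted p = 0.0103), Per1 (-0.67, SE 0.10, adjusted p = 0.00187) and Junb (-0.70, SE 0.14, adjusted p = 0.0305) were those more negative. The call of Junb was lost without any 1 of 11 libraries, and those of Junb and Arc without the 3 Cuprizone Vehicle libraries lowest in choroid plexus genes (adjusted p = 0.142 and 0.0737), where the values, -0.64 and -0.94, were about as large. Btg2 went the other way, 0.72 (SE 0.12, limma adjusted p = 0.00543). At an unadjusted p under 0.05, the difference was found for 16 of the 27 genes and for 9.74% of all genes. The corresponding value of the host, -0.18 (SE 0.24), lay between those of Btg2 and Nr4a1, as did that of Npas4, 0.28 (SE 0.24).

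Under vehicle, 4 CREB-responsive genes were higher and 2 lower in cuprizone mice, against 10.2% and 4.82% of all genes (15.0% in either direction). Npas4 averaged 8.24 ± 1.56 FPKM in Cuprizone Vehicle and 14.1 ± 2.42 FPKM in Naive Vehicle, and changed by -0.74 on the log2 scale (SE 0.17, limma adjusted p = 0.00274). Btg2 averaged 6.80 ± 0.782 FPKM in Cuprizone Vehicle and 12.4 ± 1.55 FPKM in Naive Vehicle, without overlap (-0.82, SE 0.08, limma adjusted p = 1.37e-07). The log2 difference of the host in this comparison was -0.48. The genes that were higher were Nr4a3 (0.49), a relative of Nr4a1, Per1 (0.43), Crem (0.36), which makes activators and repressors of CREB sites, and Gadd45b (0.35), a stress gene, with limma adjusted p = 9.51e-04, 7.41e-05, 0.0258 and 0.00211. The call of Crem was lost without Naive Vehicle 2 (limma adjusted p = 0.146) and without 1 other library. Under BTKi, 8 of the 27 were lower and none higher in cuprizone mice, against 1.77% and 6.11% of all genes (7.87% in either direction): Nr4a1, Arc, Junb, Egr2, Ier2, Dusp1, Sik1 and Per1, by -0.24 (Per1) to -0.87 (Arc). The call of Sik1, a kinase (limma adjusted p = 0.0423), was lost without any 1 of 9 libraries, and that of Per1 (adjusted p = 0.0296) without any 1 of 4. Those of Egr2 and Dusp1 were lost without 1 library each, Naive BTKi 1 (limma adjusted p = 0.0602) and Naive BTKi 4 (adjusted p = 0.0620).

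CREB itself, its coactivators and the kinases and receptors upstream of it made up a second list. Of its 17 genes, none was called under BTKi in cuprizone or in naive mice by limma, with 1 and 0 at an unadjusted p under 0.05, where 8.79% and 12.6% of all genes had one. Creb1 averaged 6.89 ± 0.470 FPKM in Cuprizone BTKi and 7.02 ± 0.403 in Cuprizone Vehicle, and 7.35 ± 0.624 in Naive BTKi and 6.73 ± 0.332 in Naive Vehicle. Between cuprizone and naive mice under vehicle, 2 of the 17 were higher and none lower, against 10.2% and 4.82% of all genes. They were Rps6ka4 (MSK2), a kinase that phosphorylates CREB, and Ntrk2, the receptor of BDNF. Their log2 changes were 0.21 and 0.16 (limma adjusted p = 0.00100 and 0.00132). Under BTKi, 1 of the 17 was higher in cuprizone mice and none lower, against 6.11% and 1.77% of all genes. That gene was Ntrk2, by 0.21 (limma adjusted p = 9.54e-05). These are RNA levels, and phosphorylated CREB was not measured.

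Messenger RNAs reported as targets of miR-132 or miR-212 were looked at next. Of 18 on the list, 17 passed the minimum of 0.5 mean FPKM, and Mmp9 was below it. Under BTKi, Btg2, which is also on the CREB-responsive list, was the only call in cuprizone mice and the only call in naive mice, and it was lower in both. The median log2 change of the 17 was 0.00 in cuprizone mice and -0.01 in naive mice, against -0.02 in each over all genes. Arhgap32, a GTPase activator of dendritic spines, had log2 differences of -0.05 (SE 0.06) and -0.01 (SE 0.08) under BTKi in cuprizone and in naive mice. Under vehicle, 3 targets were higher in cuprizone mice, Irak4 (0.51), a kinase of Toll-like receptor signalling, Foxo3 (0.22), a transcription factor, and Sirt1 (0.16), a deacetylase. Their limma adjusted p-values were 0.00385, 0.00173 and 0.0468, and the call of Sirt1 was lost without any 1 of 15 libraries. Mapt, which encodes tau, was lower by -0.12 (limma adjusted p = 0.0114), as was Btg2, so that 3 of the 17 were higher and 2 lower, against 10.2% and 4.82% of all genes. Irak4 was also higher in cuprizone mice under BTKi, by 0.50 (limma adjusted p = 0.00661), from levels of 0.858 ± 0.182 FPKM in Cuprizone BTKi and 0.453 ± 0.0550 FPKM in Naive BTKi.

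Sites that pair with the shared seed are shown for 4 targets named above, from the longest annotated 3′ UTR of each gene in GENCODE M21 (GRCm38), in the direction of the messenger RNA. Capitals mark the 7 letters GACTGTT, which pair with bases 2 to 8, and an eighth letter A where it follows.
Arhgap32 (chromosome 9): tctgctggacagtgGACTGTTctatttt
Foxo3 (chromosome 10): cctaacccagcagaGACTGTTAgcagccc
Sirt1 (chromosome 10): atttttacagtgaaGACTGTTttcagct
Irak4 (chromosome 15): agacttcatctcaaGACTGTTtcttgta

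GACTGTT was searched on the transcript strand and found in the longest 3′ UTR of 16 of the 18 listed targets, 5 of them with GACTGTTA. It was found in 1784 of 13659 tested genes with an annotated 3′ UTR (13.06%), and GACTGTTA in 381 (2.79%). The listed targets have longer 3′ UTRs (median 2056 against 1217 bases) and were listed as targets, so the share is a description. The median change of genes with a match was within 0.01 of that of genes without one in the 4 comparisons of groups. The classes also differ in the length of the 3′ UTR. Its median was 2445 bases with 8 letters, 2477 with 7 letters only and 1072 with none. Under BTKi in cuprizone mice the median log2 change was -0.02 with 8 letters, -0.01 with 7 letters only (1403 genes) and -0.02 with none (11875 genes). In naive mice the medians were -0.01, -0.01 and -0.02, and between cuprizone and naive mice under vehicle 0.03 in all 3 classes. A match of letters is not a measured site, and the mature microRNAs were not measured.

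**Figure D5:**
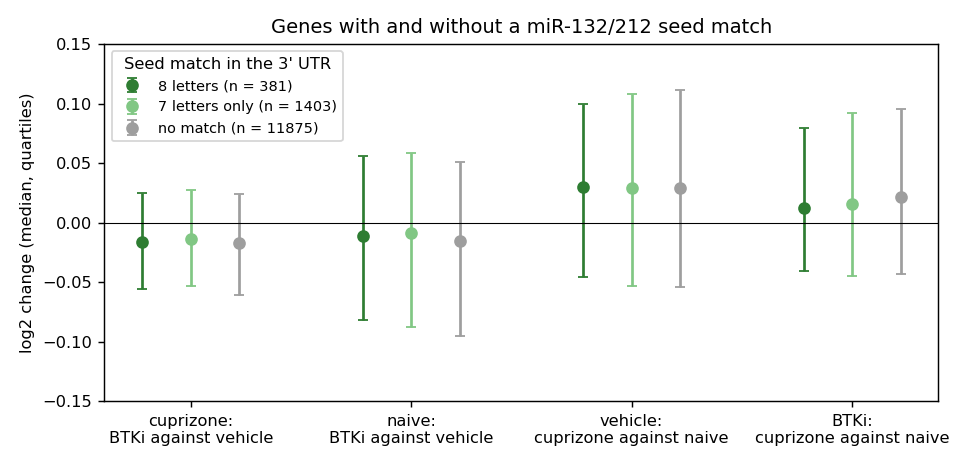
Median log2 change (points) and quartiles (bars) of genes whose longest 3′ UTR holds GACTGTTA (381 genes), GACTGTT only (1403 genes) or neither (11875 genes), in 4 comparisons. The 3 classes lie within 0.01 of each other in each comparison, and they also differ in 3′ UTR length (median 2445, 2477 and 1072 bases).

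Genes that make and load microRNAs, Drosha, Dgcr8, Dicer1, Xpo5 and the Argonautes Ago1 to Ago4 among them, were not called in any comparison. Of 16 such genes, 2 and 4 had an unadjusted p under 0.05 under BTKi in cuprizone and in naive mice (limma), where 8.79% and 12.6% of all genes had one, and 3 in each comparison of cuprizone with naive mice, where 27.4% of all genes had one under vehicle and 18.5% under BTKi. Their log2 differences ran from -0.08 to 0.11 under BTKi in cuprizone mice and from -0.23 to 0.13 in naive mice. Other RNAs that hold microRNAs were listed to set beside the miR-212/132 host. Of 16, 15 were matched in the table and 10 passed the minimum, and none was called in any comparison by limma. At an unadjusted p under 0.05 there were 3 and 1 of 10 under BTKi in cuprizone and in naive mice, against 8.79% and 12.6% of all genes, and 2 and 1 between cuprizone and naive mice under vehicle and under BTKi, against 27.4% and 18.5%. Mir22hg, the host of miR-22, averaged 11.4 ± 0.812 FPKM in Cuprizone BTKi, 12.7 ± 1.03 in Cuprizone Vehicle, 10.9 ± 0.188 in Naive BTKi and 11.7 ± 0.623 in Naive Vehicle. The tested hosts ranged from -0.15 to 0.21 under BTKi in cuprizone mice. All lay above the -0.92 of 1700016P03Rik, but that transcript was chosen on these values and the others were not.

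The cell types of the tissue were read from marker lists, since in bulk RNA fewer cells of a type and less RNA per cell cannot be told apart. All 10 neuron markers were above 0 in every library and none was called in any comparison, and their summed level ran from 2363 to 2629 FPKM in Cuprizone BTKi, 2487 to 2817 in Cuprizone Vehicle, 2507 to 2763 in Naive BTKi and 2355 to 2749 in Naive Vehicle. No marker of neurons, striatal neurons, oligodendrocytes, astrocytes, microglia, endothelium or choroid plexus was called under BTKi in cuprizone or in naive mice. In naive mice, however, all 10 oligodendrocyte, 8 striatal and 7 choroid plexus markers were below 0 (median log2 change -0.32, -0.48 and -0.48). The oligodendrocyte sum was 3033 to 3098 FPKM in Naive BTKi and 3496 to 4908 FPKM in Naive Vehicle, without overlap. In cuprizone mice 0 markers of these lists were below 0, with medians of 0.19, 0.14 and 0.68. Between cuprizone and naive mice under vehicle, where the host was also lower, all 10 oligodendrocyte and myelin markers were lower and 6 of 8 microglia markers higher, and the same counts were found under BTKi. Of 8 astrocyte markers, 4 were higher and 1 lower under vehicle, and 4 were higher and none lower under BTKi. All 8 markers of striatal neurons, cells outside the corpus callosum, were lower under vehicle and none was called under BTKi. Over all genes, 10.2% were higher and 4.82% lower in cuprizone mice under vehicle, and 6.11% and 1.77% under BTKi. Under vehicle the striatal sum was 129 to 238 FPKM in Cuprizone Vehicle and 231 to 672 FPKM in Naive Vehicle, of which Naive Vehicle 2, the highest, had the lowest host value of its group. The choroid plexus sum was 31.8 to 1534 FPKM in Cuprizone Vehicle, against 403 to 1270 FPKM in Cuprizone BTKi. Without the 3 Cuprizone Vehicle libraries lowest in it, the host differed by -0.86 between Cuprizone BTKi and Cuprizone Vehicle. The part of these tissues in the values of the host was otherwise not tested.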

How the data were processed

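The authors deposited 1 table of FPKM values, as its name says, for 54446 Ensembl gene IDs in 24 libraries. Per the labels' protocols, the Qiagen RNeasy Micro kit served for RNA extraction and the TruSeq stranded mRNA kit for the libraries. The aligner, the counting tool, its strand setting and the genome build are not given here. FPKM divides fragments by gene length and by the library's total. Of the IDs, 54409 were matched to a symbol, and coordinates are those of GENCODE M21 (GRCm38).

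Depth was recovered from low values (under 20 fragments) of 24620 genes with 1 annotated transcript, of which 89.63% came within 0.1 of a whole number, against 20.0% by chance. The 15216 genes with a mean of at least 0.5 FPKM entered a linear model of log2(FPKM + 0.5) fitted by lmFit, contrasts.fit and eBayes with trend (limma 3.58.1, R 4.3.3), all 4 groups in 1 model, with Benjamini-Hochberg adjustment over all genes and a threshold of 0.05. No count test was run, since the table holds no counts. The host transcript stayed in the fit and received no p-value. Python 3.11.15, pandas 2.3.3 and numpy 2.4.6 were used for the tables.

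The transcript, the gene lists and the tests were chosen with earlier results of these data known. Named genes are the host, its hairpins, genes within 100 kb, the 10 genes most like the host by Pearson r with and without the group means, and list members that passed in a comparison, and a few list members were added as examples. The lists are CREB-responsive genes, CREB and its activators, reported targets, microRNA processing, other microRNA hosts and 7 lists of cell type markers. Alternatives were other pseudocounts, filters, scalings, the replicate number as a block, fits of only the groups compared and leaving out each library. Added after the data were seen were log2 FPKM without a pseudocount and fits without 3 libraries low in choroid plexus genes. A few items that the named-gene rule or the target list would include are not reported here.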

Additional observations from a re-analysis of the deposited data

Results flagged for a closer look

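In 3 of 64 groups checked over 16 genes, the gap from the highest library to the nearest, over the range of its group, was above Dixon's 95% critical value, which chance alone passes in about 1 in 20 groups. Ovca2, which overlaps exon 3 of 1700016P03Rik on the other strand, had 6.36 FPKM in Cuprizone Vehicle 3, the highest of 8, where the host was at 2.55 FPKM, close to the median of its group. Dph1 had 7.09 FPKM in Cuprizone BTKi 4, the highest of 8, where the host was at 0.906 FPKM. Nr4a1 had 63.2 FPKM in Naive BTKi 1, the highest of 4, and that library also had the highest host value of its group, 3.17 FPKM.

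The BTKi effect differed between cuprizone and naive mice (limma, adjusted p under 0.05) for 6 genes named with the host. Of all genes tested, 19 (0.125%) passed. The 6 were named for likeness to the host or as CREB-responsive genes, so their count is no independent support. The BTKi effect was more negative in cuprizone mice for Arc (-1.03), Nr4a1 (-0.90), Junb (-0.70), Per1 (-0.67) and Trib1 (-0.62), and more positive for Btg2 (0.72). The call of Trib1 (limma adjusted p = 0.0230) was lost without any 1 of 5 libraries. It was also lost without the 3 Cuprizone Vehicle libraries lowest in choroid plexus genes (-0.62, limma adjusted p = 0.0853).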

How the results depend on the processing

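The differences of 1700016P03Rik kept their direction under all 32 alternatives in each comparison of groups and all 31 for the difference of BTKi effects. Leaving out 1 library gave -0.99 to -0.86 for BTKi in cuprizone mice, -0.88 to -0.61 in naive mice, -0.59 to -0.35 for cuprizone under vehicle, -0.78 to -0.52 under BTKi, and -0.31 to -0.04 for the difference of BTKi effects. The counts of genes called were less stable. Without 1 library they were 14 to 34 for BTKi in cuprizone mice (main value 27), 7 to 41 in naive mice (33), 1824 to 2390 for cuprizone under vehicle (2288), 861 to 1294 under BTKi (1198) and 8 to 23 for the difference (19). For BTKi in cuprizone mice the count was 14 without Cuprizone Vehicle 2, 17 without Cuprizone Vehicle 4 or Cuprizone BTKi 1 and 16 without Cuprizone BTKi 3, 7 or 8. In naive mice it was 7, 8 and 21 without Naive BTKi 4, 3 and 1, and 11 without Naive Vehicle 2. For the difference it was 8 and 11 without Naive BTKi 4 and 3, and 11 and 12 without Naive Vehicle 2 and 4. Without the filter on low values, 16 and 21 genes were called under BTKi in cuprizone and in naive mice, and 3 in naive mice when only those groups were fitted. Without the 3 Cuprizone Vehicle libraries lowest in choroid plexus genes the counts were 11, 19 and 7 for cuprizone, naive and the difference, and in cuprizone mice the calls of Dusp1 (-0.53, limma adjusted p = 0.0709), Egr2 (-0.52, 0.191) and Per1 (-0.23, 0.249) were lost, at values about as large (-0.59, -0.56 and -0.27 with them). With the replicate number as a block, 9 genes were called for the difference and 26, 27, 1859 and 1009 in the other comparisons, and the host had -0.92, -0.74, -0.48, -0.67 and -0.18. The block left 3 of 5 CREB-responsive genes called for the difference, without Btg2 (0.72, limma adjusted p = 0.0543) and Junb (-0.70, 0.0555). It left 3 of 5 targets called for cuprizone under vehicle, without Sirt1 and Mapt. The call of Trib1 for the difference was lost under the block as well (-0.62, limma adjusted p = 0.0555). Same-numbered libraries correlated by -0.27 to 0.32 after subtraction of the group means, so the numbers were not taken to pair them. Quantile normalization split the calls into 8 higher and 13 lower (main 6 and 21) for BTKi in cuprizone mice and 22 and 7 (16 and 17) in naive mice, where median ratio scaling gave 23 and 16. For cuprizone under vehicle the splits were 1236 and 960 by median ratio scaling and 1205 and 1072 by quantile normalization (1555 and 733), and under BTKi 767 and 415, and 724 and 395 (929 and 269). Of 1345 values of 41 gene calls under the alternatives, 1219 kept the call, 126 lost it and 0 reversed. The cause of these losses was not tested. Depth limits the host most where it is lowest, at 23 fragments.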
